A study of Mus musculus with 14 samples.

Results

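The 9 genes described here encode the receptors through which haematopoietic growth factors act on blood cells and their progenitors: Epor, Kit, Flt3, Csf1r, Csf3r, Csf2ra, Il3ra, Csf2rb and Il7r. They were chosen by name, as 9 of the 49583 genes measured, and all 9 had a value in each of the 7 sorted mouse cell populations. The question was which receptor gene marks which population.

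RNA sequencing covered 14 samples in 7 groups of 2, all from wild type C57BL/6 mice, with a stated purity above 98% after sorting. From the spleen of tumor-bearing mice came Ter cells (Ter-119+CD45-Lin-, called spleen Ter) and the control (CD45+Ter-119-), and from embryonic liver at E14.5 came cells of the same Ter gate (liver Ter). Bone marrow gave hematopoietic stem cells (HSC, c-Kit+Sca-1+Lin-), common lymphoid progenitors (CLP, the HSC gate with IL-7R+), megakaryocyte-erythroid progenitors (MEP, sorted as Lin-, Sca-1-, IL-7R-, c-Kit+, FcγRlo and CD34+) and common myeloid progenitors (CMP, sorted as MEP but CD34-). The sources used here do not name the tumor, the age of the adult mice or the Lin panel, nor whether both samples of 1 group are separate animals, so p-values measure only the spread between these samples. c-Kit and IL-7R were sort antigens of the bone marrow groups, so that Kit and Il7r differences that the gates set are no finding.

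Each growth factor receptor sits on the cell surface and passes on the presence of its ligand. Epor, Csf3r, Il7r and the family of Csf2ra, Il3ra and Csf2rb are cytokine receptors without a kinase of their own; they signal through Janus kinases (JAK) and STAT transcription factors. Kit, Flt3 and Csf1r are receptor tyrosine kinases with an enzyme domain inside the cell. Erythropoietin acting on Epor keeps erythroid precursors alive, stem cell factor on Kit and FLT3 ligand on Flt3 act on early progenitors, CSF1 on Csf1r supports macrophages, G-CSF on Csf3r supports neutrophils, and IL-7 on Il7r supports developing lymphocytes. GM-CSF binds Csf2ra and IL-3 binds Il3ra, and both use the common beta chain that Csf2rb encodes.

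Short stretches of 4 of the genes' promoters are shown because the erythroid factor GATA1 and the myeloid factor PU.1 (Spi1) are known to act on several of these genes, and because Epor on one side and Csf3r and Csf2ra on the other lie at opposite ends of the data below. The 250 bases before the RefSeq start (GRCm38.p6) were searched on both strands for a GATA motif (AGATAA, with T also taken as its first letter and G as its last) and for the PU.1 core AGAGGAAG. Matches to the 2 motifs did not overlap in these genes. RefSeq start windows were at hand for 7 of the 9 genes. The Epor window (chr9:21963577-21963826, minus strand) is printed 5′ to 3′ along the gene, with the GATA match in capitals, here as its reverse complement:
Epor: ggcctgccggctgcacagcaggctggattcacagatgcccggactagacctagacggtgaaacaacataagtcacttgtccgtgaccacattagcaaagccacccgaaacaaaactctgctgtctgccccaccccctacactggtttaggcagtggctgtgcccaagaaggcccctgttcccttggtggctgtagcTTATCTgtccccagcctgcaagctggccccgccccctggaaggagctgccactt
The match begins 54 bases before the start. Of the other receptor genes, Il3ra held a GATA match 147 bases before its start (window chr14:14346337-14346366, plus strand). Csf3r held the PU.1 core 87 bases before its start (window chr4:126024561-126024590, plus strand). Csf2ra held the PU.1 core 9 bases before its start (window chr19:61228419-61228448, minus strand). The 30 bases around each are, with the match in capitals (for Il3ra again as its reverse complement):
Il3ra: ccccgcccccaCTATCTcaggaagttgctc
Csf3r: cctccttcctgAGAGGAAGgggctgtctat
Csf2ra: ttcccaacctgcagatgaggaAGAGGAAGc
Of all 32851 RefSeq start windows of this length, 26.5% held a GATA motif and 3.67% held the PU.1 core. The windows of Kit, Flt3 and Il7r held neither set of letters. The gene positions given below are GENCODE spans, whose starts differ from the RefSeq starts used here. The matches of Il3ra, Csf3r and Csf2ra lie inside these spans, after the GENCODE start. The Epor window lies before the GENCODE start. A match is a run of letters and not a measured binding site.

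The deposited values are group means in FPKM (fragments counted on a gene, divided by the gene's length and by the depth of the library), 1 column per group. In the spleen Ter, liver Ter, MEP and CMP columns the low values fall on a grid of whole fragments, from which the 2 libraries behind each mean were recovered, named A for the deeper one and B for the other. Their depths were between 13410000 and 28540000 fragments. The control, HSC and CLP columns lie on no such grid and were therefore taken to be made in another way. They are given as the authors' means, without an error and without a test. Values of these columns beside the other 4 are set side by side only.

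The labels were checked against marker genes first. Liver Ter was erythroid throughout: all 9 measured erythroid markers were at 218 FPKM or more, with a summed level of 123600 FPKM. Spleen Ter held 38370 FPKM of the same markers, and also B cell markers (summed 1180 FPKM), T cell markers (363 FPKM), monocyte and macrophage markers (730 FPKM) and neutrophil markers (24730 FPKM), although its gate excludes CD45+ and Lin+ cells. The libraries labelled MEP went against their label. They held 176400 FPKM of the 12 neutrophil markers, led by S100a9 at 84794 FPKM, against 8526 FPKM in the CMP column and 10.5 FPKM of erythroid markers; Gata1, the erythroid and megakaryocyte factor, stood at 1.18 and 0.674 FPKM. Cd34 went against the stated gates of both columns: it was at 0.0694 FPKM in the column labelled MEP, stated as CD34+, and at 29.7 FPKM in the column labelled CMP, stated as CD34-. These Cd34 values concern the stated gates and are not counted against the names MEP and CMP. The HSC column held B cell precursor genes (Dntt 416 FPKM, Vpreb1 152 FPKM), which the CLP column held at 773 and 278 FPKM, and neutrophil markers (12050 FPKM in HSC and 15730 FPKM in CLP). In these bulk samples, fewer cells of a type and less RNA per cell cannot be told apart.

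**Figure D1:**
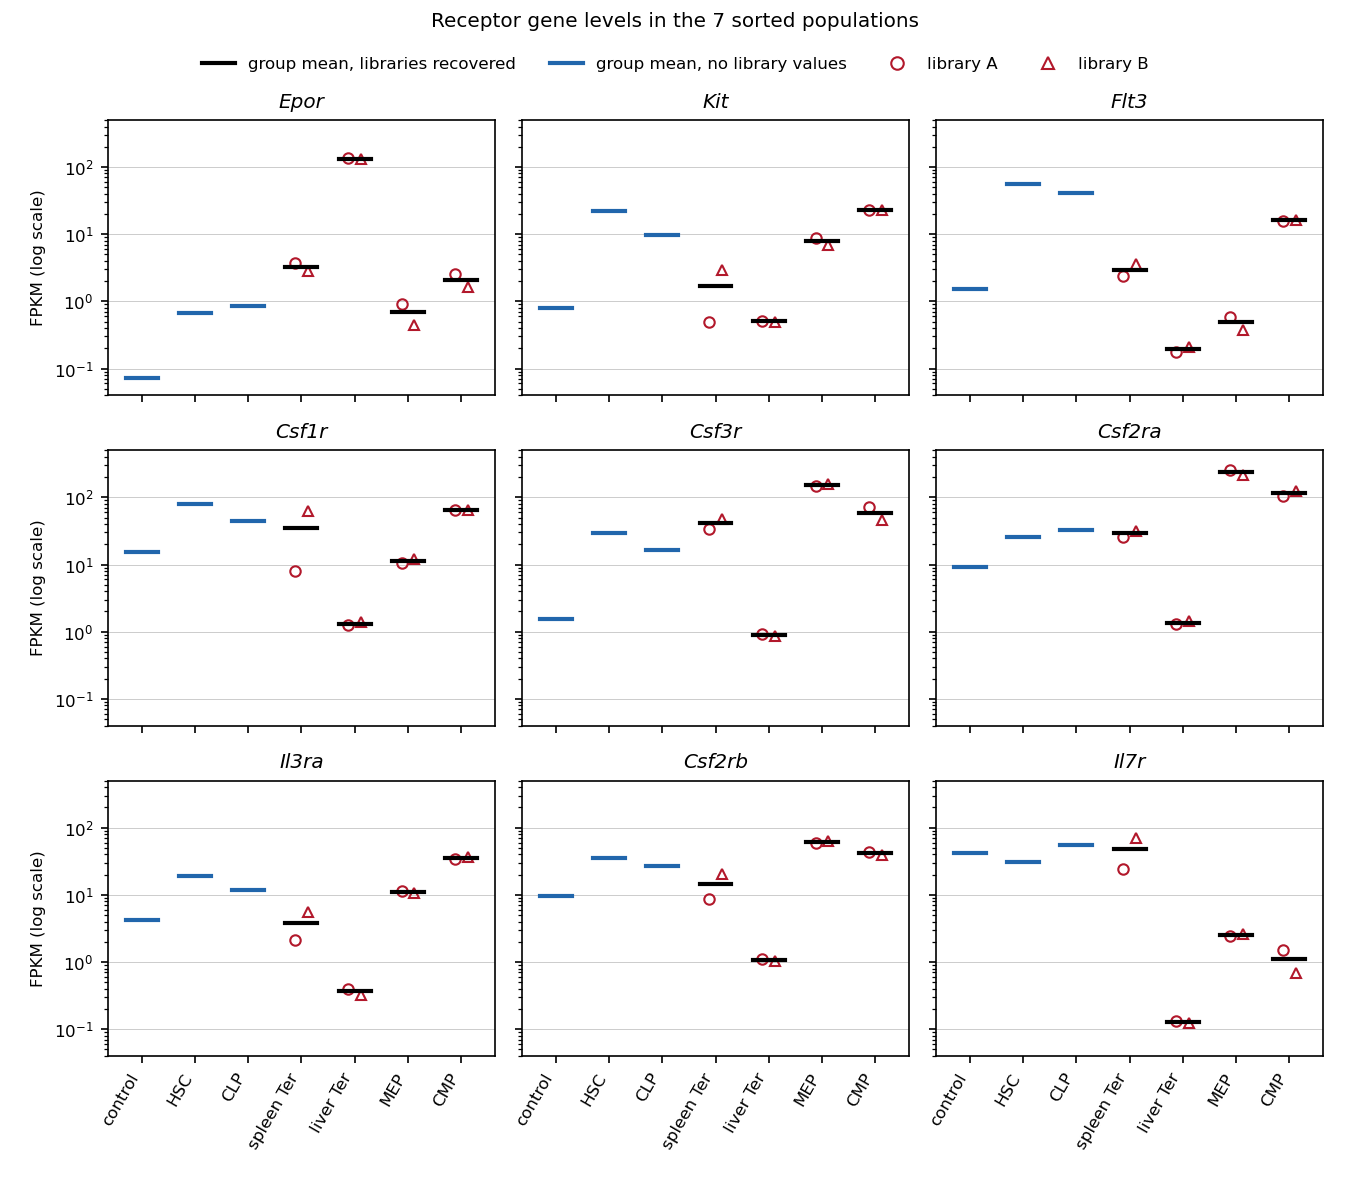
Level of each receptor gene (FPKM, log axis) in the 7 populations. Short lines are the authors' group means, black where the 2 libraries could be recovered (red circles for library A, triangles for library B) and blue where they could not. By group mean, Epor stands at 133 FPKM in liver Ter and at or below 3.28 FPKM elsewhere, while the other 8 genes are lowest in liver Ter; for Kit, spleen Ter library A lies just below both liver Ter libraries.

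Epor (chromosome 9, 21958897 to 21963506, minus strand, GRCm38) encodes the erythropoietin receptor and had the most uneven levels of the 9 genes. It stood at 135 and 131 FPKM in the 2 liver Ter libraries, from 7665 and 4583 fragments. The next level was in spleen Ter, with 3.69 and 2.87 FPKM, followed by CMP with 2.58 and 1.61 FPKM and the libraries labelled MEP with 0.919 and 0.451 FPKM. The liver Ter mean was 40.6 times that of spleen Ter, although both were sorted as Ter-119+CD45-Lin-. The CLP, HSC and control columns gave 0.852, 0.682 and 0.0732 FPKM, so that Epor in the column labelled MEP (0.685 FPKM) lay beside that of HSC. The 3 protein-coding genes most like Epor over the 7 columns were Ufsp1 (Pearson r = 0.993), Kel (r = 0.992) and Kpna1 (r = 0.991), out of 134 genes with r of at least 0.95; Kel, which encodes a red cell surface antigen, stood at 647 FPKM in liver Ter and 6.21 FPKM in spleen Ter. Such correlations over 7 columns rest here on the 1 liver Ter column and are given as a description.

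Kit (chromosome 5, 75574916 to 75656722, plus strand), the receptor for stem cell factor, was highest in CMP, at 22.9 and 23.0 FPKM. HSC followed at 22.3 FPKM, with the CMP mean 1.03 times higher, then CLP at 9.82 FPKM. The libraries labelled MEP held 8.88 and 6.93 FPKM although their gate, like that of CMP, required c-Kit. Liver Ter held 0.511 and 0.499 FPKM, the lowest group mean, and the control 0.795 FPKM. In spleen Ter the libraries differed 5.93-fold, with 0.490 FPKM in A and 2.91 FPKM in B. The genes most like Kit were Fcer1a (r = 0.990), Prss34 (r = 0.987) and Txnrd1 (r = 0.982); Fcer1a and Prss34 are basophil and mast cell genes, and Prss34 stood at 801 FPKM in CMP, 756 FPKM in HSC and 80.1 FPKM in the column labelled MEP. Of the 8 mast cell and basophil markers 6 reached 1 FPKM in HSC, CLP, MEP and CMP, and their summed level was 1477 FPKM in CMP and 1467 FPKM in HSC against 142 FPKM in MEP. Their part in the Kit levels was not tested.

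Flt3 (chromosome 5, 147330741 to 147400489, minus strand), the receptor of multipotent and lymphoid progenitors and of dendritic cells, was highest in HSC at 55.0 FPKM and CLP at 41.5 FPKM. CMP held 15.7 and 16.3 FPKM. All other populations were far lower: 2.35 and 3.61 FPKM in spleen Ter, 1.51 FPKM in the control, 0.592 and 0.379 FPKM in the libraries labelled MEP, and 0.176 and 0.212 FPKM in liver Ter. Flt3 was thus at least 10 FPKM in 3 of the 7 columns, all of them bone marrow progenitor gates. Exo5, Kifap3 and Slc27a1 were most like it (r = 0.988, 0.984 and 0.984).

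Csf1r (chromosome 18, 61100598 to 61132149, plus strand), the macrophage colony-stimulating factor receptor, was highest in HSC at 80.8 FPKM, followed by CMP at 65.8 and 65.2 FPKM and CLP at 44.0 FPKM. Its level in spleen Ter differed between the libraries, with 8.09 FPKM in A and 62.6 FPKM in B, a 7.74-fold difference. The control held 15.1 FPKM, the libraries labelled MEP 10.5 and 12.3 FPKM, and liver Ter 1.25 and 1.38 FPKM. Library A of spleen Ter thus lay below the libraries labelled MEP, and library B lay near CMP. The genes most like Csf1r were Rwdd2b (r = 0.989), Pias2 (r = 0.986) and Fra10ac1 (r = 0.984).

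Csf3r (chromosome 4, 126024550 to 126044440, plus strand), the G-CSF receptor of the neutrophil lineage, was highest in the libraries labelled MEP, at 148 and 159 FPKM. CMP held 71.3 FPKM in A and 45.4 FPKM in B, and spleen Ter 34.0 and 47.9 FPKM, so that spleen Ter library B exceeded CMP library B. In CMP the neutrophil markers also stood higher in library A: the 3 markers recovered in all libraries (Ly6g, Cxcr2 and Mmp9) summed to 58.2 FPKM in A and 4.85 FPKM in B. Their part in the Csf3r difference was not tested. HSC held 29.2 FPKM of Csf3r, CLP 16.6 FPKM, the control 1.56 FPKM and liver Ter 0.932 and 0.869 FPKM. Most like Csf3r were Cd300lb (r = 0.992), Cd63 (r = 0.991) and Hp (r = 0.984), and Hp, which encodes haptoglobin, a protein of neutrophil granules and plasma, stood at 1148 FPKM in the column labelled MEP.

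The GM-CSF receptor alpha chain gene Csf2ra (chromosome 19, 61223957 to 61228429, minus strand) had the highest level of any of the 9 genes, 259 and 218 FPKM in the libraries labelled MEP. CMP held 106 and 123 FPKM. CLP (32.3 FPKM), spleen Ter (26.0 and 31.9 FPKM) and HSC (25.5 FPKM) lay close together, the control was at 9.14 FPKM and liver Ter at 1.29 and 1.45 FPKM. App (r = 0.998), Gda (r = 0.991) and Nkiras2 (r = 0.990) were most like Csf2ra.

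The IL-3 receptor alpha chain gene Il3ra (chromosome 14, 14346275 to 14356011, plus strand) followed another order. It was highest in CMP at 33.8 and 36.0 FPKM, 1.84 times the HSC level of 19.0 FPKM, followed by CLP at 11.8 FPKM and the libraries labelled MEP at 11.2 and 10.8 FPKM. The control stood at 4.26 FPKM, spleen Ter at 2.14 and 5.47 FPKM and liver Ter at 0.402 and 0.327 FPKM, the last from 16 and 8 fragments. Most like Il3ra were Fam102b (r = 0.990), Reep5 (r = 0.989) and Erlin2 (r = 0.986).

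The common beta chain gene Csf2rb (chromosome 15, 78325752 to 78353847, plus strand) was highest in the libraries labelled MEP at 58.4 and 62.4 FPKM, then CMP at 43.9 and 39.8 FPKM and HSC at 35.9 FPKM. CLP held 27.1 FPKM, spleen Ter 8.75 and 20.6 FPKM, the control 9.60 FPKM and liver Ter 1.11 and 1.05 FPKM. Mice carry a near-identical second gene, Csf2rb2, at 16.5 FPKM in HSC and 8.27 FPKM in the column labelled MEP, and reads from shared stretches could have been assigned to either. Lamp2, Nadk and Slc39a11 were most like Csf2rb (r = 0.991 each).

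The 2 alpha chains were not in a fixed ratio to each other or to the beta chain. Csf2ra to Il3ra was 23.0 and 20.2 in the libraries labelled MEP, 3.13 and 3.40 in CMP and 12.2 and 5.83 in spleen Ter, and 1.35 in HSC. Il3ra to Csf2rb was 0.192 and 0.174 in the libraries labelled MEP against 0.769 and 0.905 in CMP. In CMP the FPKM of Il3ra thus came near that of Csf2rb, and in the libraries labelled MEP it did not. This ratio leaves out Csf2rb2 (7.45 FPKM in CMP and 8.27 FPKM in the column labelled MEP). It also rests on gene lengths found from the values, and is no ratio of receptor chains. Csf3r to Csf1r, the neutrophil against the macrophage receptor, was 13.5 in the column labelled MEP and between 0.103 (control) and 1.16 (spleen Ter mean) in every other column. In spleen Ter that ratio was 4.20 in A but 0.765 in B.

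Il7r (chromosome 15, 9505788 to 9530176, minus strand), the IL-7 receptor alpha chain of lymphocytes and their precursors, was highest in CLP at 55.0 FPKM, a gate that requires it. Spleen Ter came next with 24.5 FPKM in A and 70.2 FPKM in B, then the control with 42.3 FPKM and HSC with 30.4 FPKM. The libraries labelled MEP held 2.48 and 2.64 FPKM, CMP 1.51 and 0.697 FPKM, and liver Ter 0.131 and 0.124 FPKM, from 12 and 7 fragments. The 4 columns with Il7r above 30 FPKM were those with the most B cell marker RNA (668 to 1924 FPKM, against 62.6 FPKM or less in the rest). Most like Il7r were Ifit1 (r = 0.997), Slamf6 (r = 0.996) and Mzb1 (r = 0.996); Mzb1, a gene of B cells and plasma cells, stood at 153 FPKM in spleen Ter. Whether B and T cell RNA carries the Il7r level of spleen Ter was not tested.

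By their highest column, 1 receptor gene fell to liver Ter (Epor), 3 to the column labelled MEP (Csf2ra, Csf2rb and Csf3r), 2 to CMP (Kit and Il3ra), 2 to HSC (Csf1r and Flt3) and 1 to CLP (Il7r). Of 16297 genes with at least 1 FPKM in any column, 7.6% were highest in liver Ter, 10.7% in MEP, 17.0% in CMP, 11.0% in HSC and 18.9% in CLP. Several of these first places were narrow. Kit in CMP exceeded HSC by 1.03 times and Il7r in CLP exceeded spleen Ter by 1.16 times. Csf1r in HSC exceeded CMP by 1.23 times. Each of these compares columns taken to be made in different ways. Il7r was highest in spleen Ter under each of 3 other scalings of the columns, and Csf1r was highest in CMP when totals left out the globin genes. Liver Ter was the lowest column of 8 of the 9 genes, all but Epor, and the lowest of 53.8% of all genes.

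**Figure D2:**
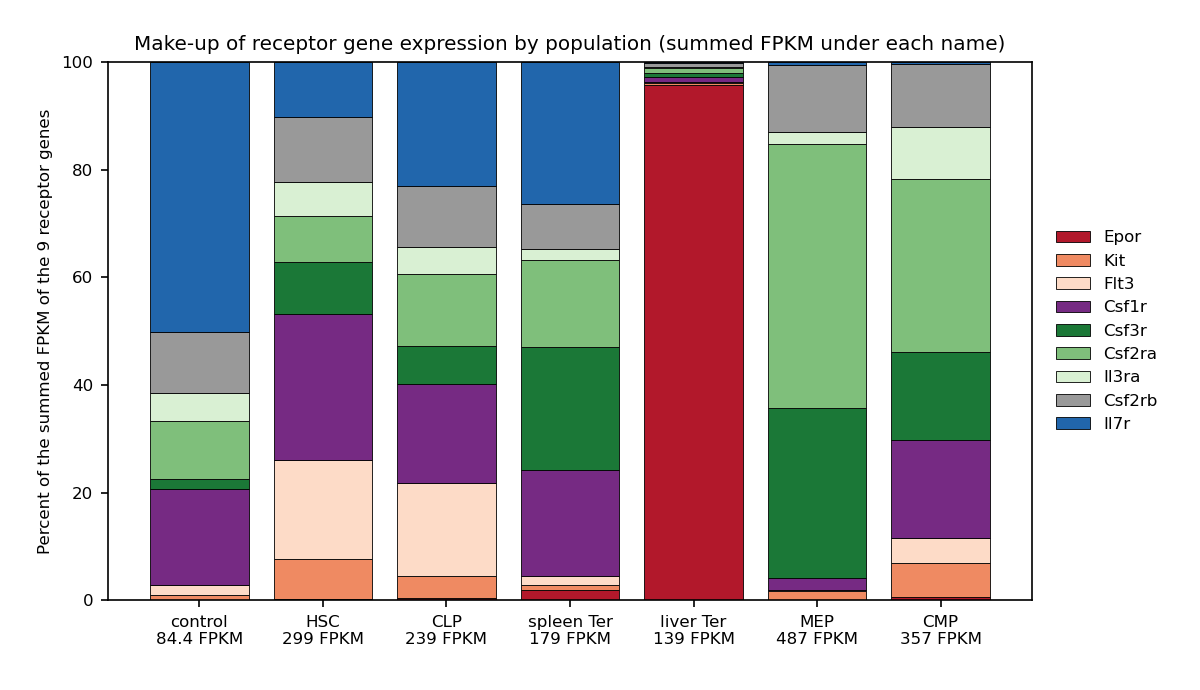
Share of each receptor gene in the summed FPKM of the 9 genes (percent, stacked bars) in each population, with the sum under its name. Epor makes up 95.8% in liver Ter, Csf2ra and Csf3r together most of the column labelled MEP, and Il7r 50.2% of the control.

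As a share of the 9 genes' summed FPKM, Epor took 95.9% and 95.7% in the liver Ter libraries and 1.83% in spleen Ter. In the column labelled MEP, Csf2ra took 49.0% and Csf3r 31.6%, and in CMP Csf2ra took 32.0%, Csf1r 18.4% and Csf3r 16.4%. In HSC the leading genes were Csf1r at 27.0%, Flt3 at 18.4% and Csf2rb at 12.0%. In CLP they were Il7r at 23.0%, Csf1r at 18.4% and Flt3 at 17.4%. The summed level ranged from 84.4 FPKM in the control to 487 FPKM in the column labelled MEP.

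The differences among spleen Ter, liver Ter, MEP and CMP were tested with limma on log2(FPKM + 1) of the 8 libraries, over 12899 genes, and a gene was called at a Benjamini-Hochberg adjusted p under 0.05 and a log2 fold change of at least 1 in size. All 9 receptor genes were among the genes tested. In these comparisons the libraries of each group serve in 3 of the 6 comparisons, so the comparisons are not independent of one another. FPKM are relative values: a group in which globin or neutrophil genes take much of the total has less left for the rest, so each comparison below also states the median over every gene tested.

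**Figure D3:**
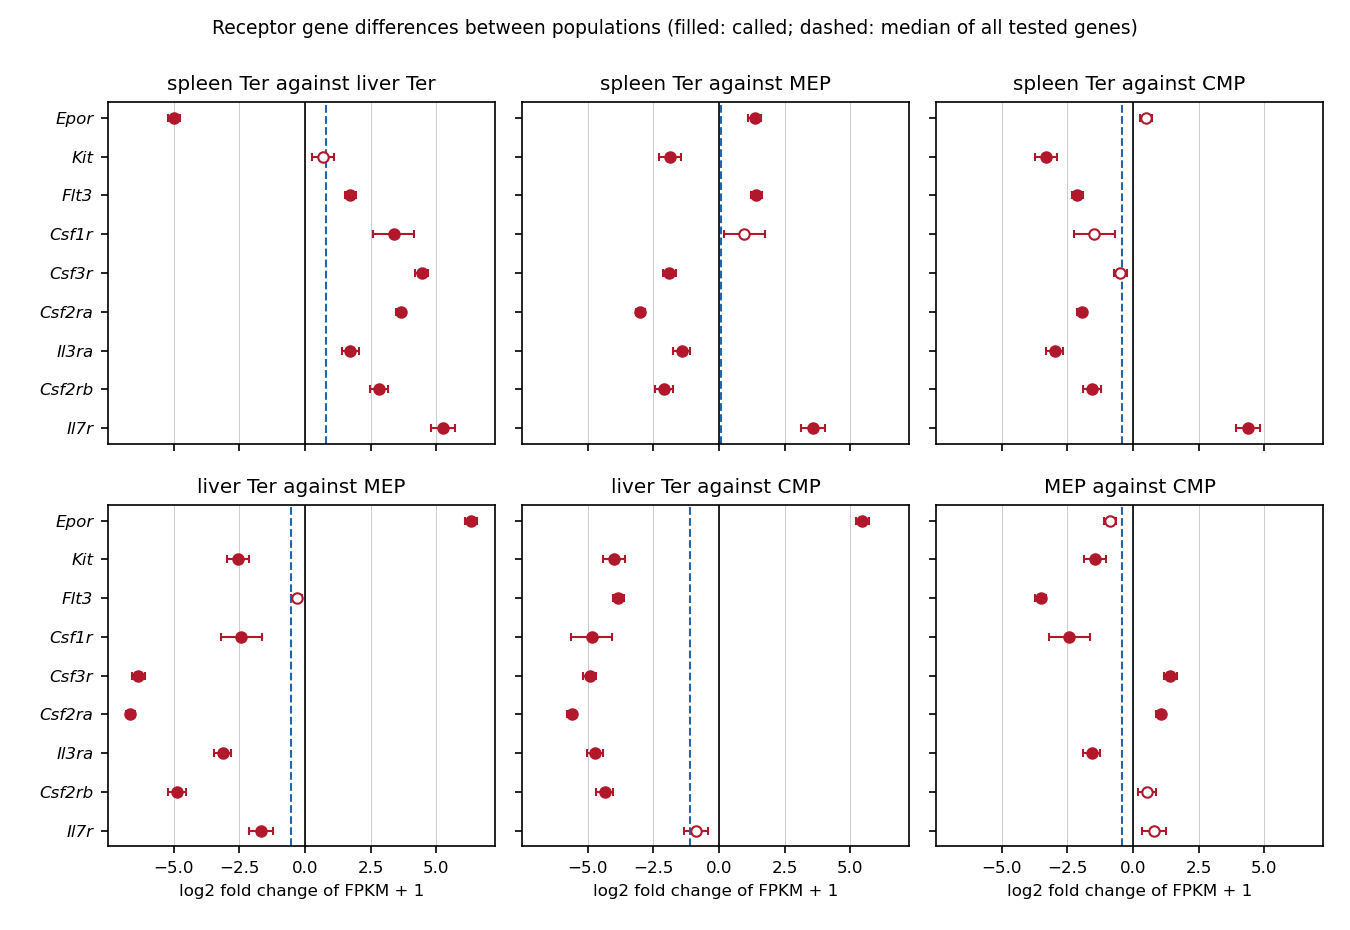
Fitted log2 fold change of FPKM + 1 with its standard error (bars) for the 9 receptor genes in 6 comparisons; positive values are higher in the population named first. Filled points were called, and the dashed line is the median of all tested genes. MEP stands for the libraries so labelled, and Epor lies on the opposite side from the other 8 genes in each of the 3 comparisons with liver Ter.

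Between the 2 Ter populations, 7 receptor genes were higher in spleen Ter and Epor was higher in liver Ter. Epor differed by -4.98 ± 0.23 (log2 fold change ± SE, adjusted p = 9.88e-06). The receptors higher in spleen Ter were Il7r (5.24 ± 0.46, adjusted p = 0.000102), Csf3r (4.44 ± 0.25, adjusted p = 1.76e-05), Csf2ra (3.65), Csf1r (3.38 ± 0.78, adjusted p = 0.00768), Csf2rb (2.80), Flt3 (1.72) and Il3ra (1.72). Of all genes tested 54.7% were called, 43.0% higher in spleen Ter, so that 7 of 9 stands against a high background; 11.7% were called higher in liver Ter. The median was 2.80 over the 9 genes and 0.79 over all tested genes. Kit was not called (0.68 ± 0.42, adjusted p = 0.19) and its libraries overlapped: without spleen Ter library A it stood at 1.38 (adjusted p = 0.000196), and without library B at -0.01. With quantile normalization Flt3 (0.78) and Il3ra (0.68) no longer reached the fold.

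**Figure D4:**
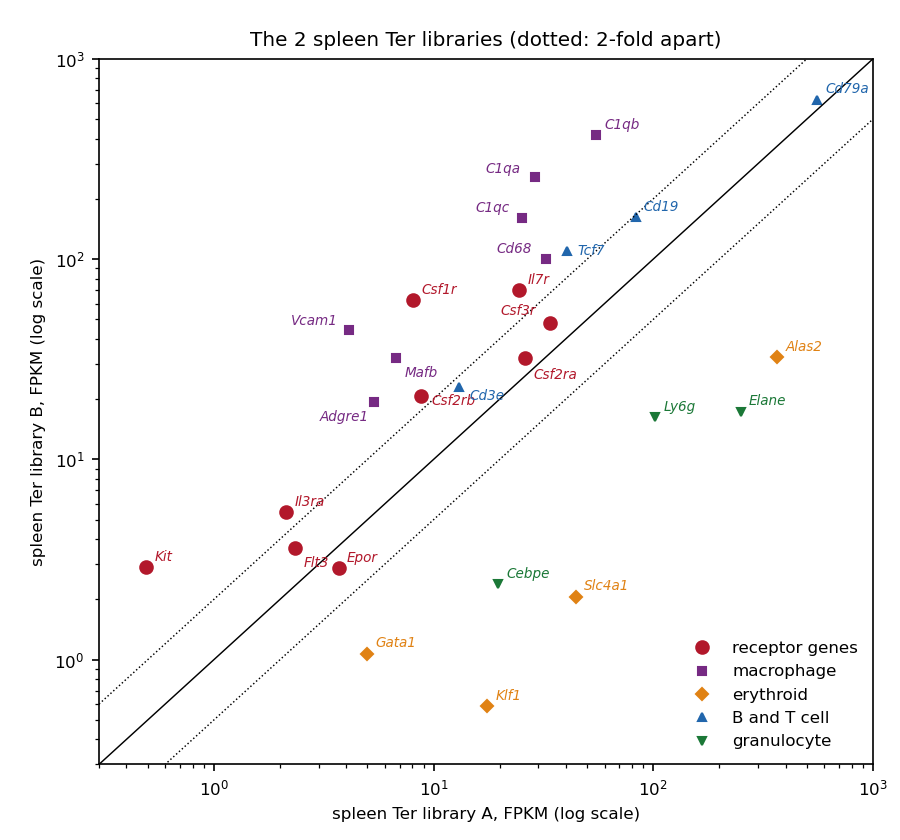
FPKM of the 9 receptor genes and of a selection of marker genes in spleen Ter library A (x axis) and library B (y axis), both on log axes; the solid line marks equality and the dotted lines a 2-fold difference. Csf1r, Kit, Il7r, Il3ra and Csf2rb lie above the upper dotted line, as do the macrophage genes plotted and the T cell gene Tcf7. Epor lies near equality, and the erythroid genes plotted lie far below the lower line. Not plotted are the monocyte gene Ly6c2, which was lower in B, and the erythroid factor Tal1 (1.77 FPKM in A and 2.01 FPKM in B).

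The 2 spleen Ter libraries differed by more than those of any other group for 6 of the 9 genes. Csf1r, Kit, Il7r, Il3ra and Csf2rb (5 of 9) were at least 2-fold higher in library B and none was at least 2-fold higher in library A, against 18.0% and 4.11% of all tested genes. All 11 monocyte and macrophage markers were at 1 FPKM or more in both libraries, and their summed level was 324 FPKM in A and 1136 FPKM in B; The complement genes C1qa (29.1 and 256 FPKM), C1qb (54.6 and 414 FPKM) and C1qc (25.1 and 160 FPKM) made up most of that difference. Of the 11 markers 10 were higher in B, and Ly6c2, a gene of inflammatory monocytes, was lower (157 FPKM in A and 77.7 FPKM in B). The 8 T cell markers summed to 288 and 438 FPKM and the 9 B cell markers to 1026 and 1335 FPKM. By summed level, the erythroid, neutrophil and mast cell or basophil markers went the other way. The 4 erythroid markers recovered in all libraries summed to 63.1 FPKM in A and 1.92 FPKM in B, and Klf1, an erythroid transcription factor, stood at 17.5 and 0.584 FPKM. The 3 neutrophil markers recovered in all libraries summed to 171 FPKM in A and 84.8 FPKM in B, while Csf3r was higher in B. Of these markers, Ly6g and Cxcr2 were higher in A, and Mmp9 was higher in B (46.8 FPKM in A and 57.3 FPKM in B). The 6 mast cell and basophil markers recovered summed to 54.9 FPKM in A and 1.47 FPKM in B, while Kit was higher in B. Epor differed less than the erythroid markers, at 3.69 FPKM in A and 2.87 FPKM in B, a 1.29-fold difference. The part of other cell types in the spleen Ter receptor levels was not tested.

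Against the libraries labelled MEP, spleen Ter was higher in Il7r (3.58 ± 0.46, adjusted p = 0.000766), Flt3 (1.41 ± 0.21, adjusted p = 0.00137) and Epor (1.35 ± 0.23, adjusted p = 0.00275). It was lower in Csf2ra (-3.00 ± 0.17, adjusted p = 3.77e-05), Csf2rb (-2.08 ± 0.34, adjusted p = 0.00222), Csf3r (-1.90 ± 0.25, adjusted p = 0.000847), Kit (-1.88) and Il3ra (-1.42). Of all tested genes 42.9% were called, 23.3% higher in spleen Ter and 19.5% higher in MEP, with a median of 0.09, against -1.42 over the 9 genes. Kit and Il7r were sort antigens here. Csf1r overlapped (0.96 ± 0.78, adjusted p = 0.328), and stood at 2.36 (adjusted p = 1.80e-05) without spleen Ter library A and at -0.44 without library B. Il3ra stood at -0.89 without spleen Ter library A. Without MEP library A, Kit and Il3ra lost the call (adjusted p = 0.0565 and 0.0528).

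Against CMP, spleen Ter was higher in Il7r alone (4.37 ± 0.46, adjusted p = 0.000354) and lower in Kit (-3.31), Il3ra (-2.99 ± 0.32, adjusted p = 0.000387), Flt3 (-2.12 ± 0.21, adjusted p = 0.000261), Csf2ra (-1.95 ± 0.17, adjusted p = 0.000155) and Csf2rb (-1.56 ± 0.34, adjusted p = 0.0078). Of all tested genes 42.4% were called, 14.0% higher in spleen Ter and 28.4% higher in CMP, with a median of -0.41, against -1.56 over the 9 genes. Epor (0.48 ± 0.23, adjusted p = 0.123), Csf3r (-0.48 ± 0.25, adjusted p = 0.142) and Csf1r (-1.47 ± 0.78, adjusted p = 0.152) did not pass. Csf1r was called without spleen Ter library B (-2.87, adjusted p = 1.34e-05). The Csf2rb call was lost without spleen Ter library A (-0.98), without CMP library A (adjusted p = 0.0508) and with median-of-ratios scaling (-0.95).

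Liver Ter differed from the marrow myeloid populations in the same way for most receptors. Against the libraries labelled MEP, Epor was higher by 6.33 ± 0.23 (adjusted p = 5.69e-06) and 7 genes were lower, among them Csf2ra (-6.66 ± 0.17, adjusted p = 2.91e-06), Csf3r (-6.35 ± 0.25, adjusted p = 6.75e-06), Csf2rb (-4.88) and Il3ra (-3.14). Of all tested genes 42.2% were called, 8.74% higher in liver Ter and 33.4% higher in MEP, with a median of -0.54 (-2.56 over the 9 genes). Flt3, at 0.194 and 0.485 FPKM, was not called (-0.31 ± 0.21, adjusted p = 0.248). Csf1r (-2.42 ± 0.78, adjusted p = 0.036) and Il7r (-1.66 ± 0.46, adjusted p = 0.0206) were called with all 8 libraries. Both lost the call without either liver Ter or either MEP library (Csf1r -2.52 to -2.32, Il7r -1.69 to -1.63). Csf1r also lost it without either CMP library (-2.42) and with median-of-ratios scaling (adjusted p = 0.0547). With quantile normalization both lost it (Csf1r -1.39, adjusted p = 0.104). Neither lost it without a spleen Ter library. The spleen Ter libraries widen the shared spread (Csf1r 8.09 and 62.6 FPKM, Il7r 24.5 and 70.2 FPKM).

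Against CMP, Epor was higher in liver Ter by 5.46 ± 0.23 (adjusted p = 1.14e-05), and 7 genes were lower: Csf2ra (-5.60 ± 0.17, adjusted p = 4.96e-06), Csf3r (-4.93), Csf1r (-4.85 ± 0.78, adjusted p = 0.00134), Il3ra (-4.72), Csf2rb (-4.36), Kit (-3.99) and Flt3 (-3.83 ± 0.21, adjusted p = 1.99e-05). Of all tested genes 60.2% were called, 6.99% higher in liver Ter and 53.2% higher in CMP, with a median of -1.12 (-4.36 over the 9 genes). Il7r, at 0.128 and 1.10 FPKM and with IL-7R- in the CMP gate, was not called (-0.87 ± 0.46, adjusted p = 0.129). The other scalings brought the all-gene median to between -0.64 and -0.02 and kept Epor and the same 7 genes on the same sides with the call.

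The libraries labelled MEP and those labelled CMP shared their stated gate except for CD34, and differed in 6 of the 9 genes. Higher in MEP were Csf3r (1.42 ± 0.25, adjusted p = 0.00431) and Csf2ra (1.06 ± 0.17, adjusted p = 0.00264). Lower were Flt3 (-3.52 ± 0.21, adjusted p = 0.000185), Csf1r (-2.43 ± 0.78, adjusted p = 0.0414), Il3ra (-1.58 ± 0.32, adjusted p = 0.00774) and Kit (-1.44 ± 0.42, adjusted p = 0.0297). Of all tested genes 31.9% were called, 7.34% higher in MEP and 24.5% higher in CMP, with a median of -0.41 (-0.87 over the 9 genes). Epor (-0.87 ± 0.23, adjusted p = 0.0218) did not reach the fold, and Csf2rb (0.52 ± 0.34, adjusted p = 0.261) and Il7r (0.79 ± 0.46, adjusted p = 0.211) were not called. Flt3 and Csf3r kept the call in every alternative. With median-of-ratios scaling, which brought the all-gene median to 0.07, the split was 4 genes higher and 1 lower in place of 2 and 4. That scaling gave 1837 of 12455 tested genes called higher in MEP and 1184 higher in CMP. Kit (-1.59 to -1.28) and Csf1r (-2.53 to -2.33) lost the call when any MEP, CMP or liver Ter library was left out. Neither lost it without a spleen Ter library. The 4 groups share 1 estimate of the spread, which spleen Ter widens (Csf1r 8.09 and 62.6 FPKM, Kit 0.490 and 2.91 FPKM). Csf2ra lost the call without MEP library A (0.93) or CMP library A (0.95), and Il3ra without MEP library B or CMP library B. The neutrophil markers summed to 176400 FPKM in MEP and 8526 FPKM in CMP, higher where Csf3r and Csf2ra were higher, although 3 of the 12 (Mpo, Elane and Prtn3, genes of early granules) were lower in MEP, Mpo at 219 against 1753 FPKM. The mast cell and basophil markers summed to 142 FPKM in MEP and 1477 FPKM in CMP, lower where Kit and Il3ra were lower. Their part in these differences was not tested.

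HSC and CLP, 2 columns without library values, were within 2-fold of each other in 8 of the 9 receptor genes. Kit was the 1 gene at least 2-fold apart on log2(FPKM + 1), higher in HSC by 1.10, against 4.66% of 16297 genes in either direction, 2.6% higher in HSC and 2.06% higher in CLP. Csf1r (0.86), Csf3r (0.78), Il3ra (0.64), Flt3 (0.40) and Csf2rb (0.39) were higher in HSC by less than 2-fold, and Il7r (-0.84), Csf2ra (-0.33) and Epor (-0.14) were higher in CLP. Whether these differences exceed the spread between samples cannot be seen from the means.

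The spleen control had less of most receptors than HSC or CLP, the other columns that lie on no grid. Flt3 (-4.48), Kit (-3.70), Csf3r (-3.56), Csf1r (-2.34), Il3ra (-1.92), Csf2rb (-1.80) and Csf2ra (-1.39) were at least 2-fold lower in the control than in HSC, 7 of 9 genes against 14.0% of all genes. None was 2-fold higher, against 9.01%; in either direction it was 23.0%. The same 7 genes were at least 2-fold lower than in CLP, against 14.7% of all genes (9.61% higher in the control, 24.3% in either direction), and these 2 comparisons share the control. Values against CLP were -4.08 for Flt3, -2.78 for Csf3r and -2.59 for Kit. Il7r was within 2-fold in both (0.47 against HSC and -0.37 against CLP). Epor, at 0.0732 FPKM in the control, did not reach 2-fold on log2(FPKM + 1) either (-0.65 against HSC and -0.79 against CLP). With 0.1 added to the FPKM in place of 1, its values were -2.17 and -2.46. For this gene near the floor, the count thus depends on the amount added.

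Against the control, also from the spleen of tumor-bearing mice, spleen Ter had 4 receptor genes at least 2-fold higher and none 2-fold lower, with 11.4% and 24.1% of all genes in those directions and 35.5% in either: Csf3r (4.04), Epor (2.0), Csf2ra (1.56) and Csf1r (1.18). The last rests on library B, since library A at 8.09 FPKM lay below the control's 15.1 FPKM. Kit (0.59), Flt3 (0.66), Csf2rb (0.57), Il7r (0.16) and Il3ra (-0.13) were within 2-fold. These columns were taken to be made in different ways, and no test was run.

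Of the ligands of these receptors, few were measured above 1 FPKM. Epo and Il3 were listed at 0 in all 7 columns, and 3 of 12 ligand genes (Csf1, Flt3l and Tslp) passed the filter for the test. Csf1, the ligand of Csf1r, was highest in HSC at 11.02 FPKM and CLP at 10.4 FPKM; it was 8.24 and 5.49 FPKM in CMP and 0.0332 and 0.119 FPKM in liver Ter (liver Ter against CMP -2.85 ± 0.37, adjusted p = 0.000517). Flt3l, the ligand of Flt3, was highest in the control at 7.75 FPKM, and stood at 2.34 and 6.56 FPKM in spleen Ter against 0.235 and 0.191 FPKM in liver Ter (2.05 ± 0.36, adjusted p = 0.00214). Tslp, whose receptor pairs Il7r with Crlf2, was higher in CMP than in the libraries labelled MEP (2.41 and 2.63 against 0.251 and 0.0879 FPKM, -1.59 ± 0.15, adjusted p = 0.000397).

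Among partner and related receptor chains, 12 of 15 were tested. The list also held Tfrc, the transferrin receptor gene, which was not tested because its liver Ter libraries were not recovered. Its means were 466 FPKM in liver Ter and 11.5 FPKM in spleen Ter. In spleen Ter against liver Ter, 9 of the 12 tested genes were higher and none lower. The shares of all tested genes were 43.0% and 11.7%, and the median was 2.30 against 0.79. The IL-7 receptor's second chain Il2rg, the common gamma chain, stood at 47.8 and 52.6 FPKM in spleen Ter and 0.161 and 0.215 FPKM in liver Ter (5.43 ± 0.16, adjusted p = 3.01e-06), and at 348 FPKM in the control. Against the libraries labelled MEP, 6 were higher and 2 lower in spleen Ter (23.3% and 19.5% of all tested genes), with a median of 1.37. Against CMP, 6 were higher and 4 lower (14.0% and 28.4% of all tested genes), with a median of 0.40; the share of lower genes there is near that of all genes.

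Most JAK and STAT genes, which act downstream of the receptors, were lower in liver Ter than in the other 3 tested groups. Of 11, 10 were higher in spleen Ter than in liver Ter (median 1.91), 10 higher in MEP and 9 higher in CMP. The matching shares of all tested genes were 43.0%, 33.4% and 53.2%. With quantile normalization these counts were 5, 7 and 5, against 2910, 2525 and 2440 of 12720 tested genes. The 1 gene called higher in liver Ter than in spleen Ter was Jak2, the kinase that Epor uses, at 27.6 and 29.8 FPKM in liver Ter against 7.63 and 15.8 FPKM in spleen Ter (-1.30 ± 0.30, adjusted p = 0.00703). Stat5a and Stat5b, the main STAT proteins of Epor signalling, were higher in spleen Ter (1.79 ± 0.17 and 1.41 ± 0.30). Of 16 adaptors and kinases, 10 were higher in spleen Ter against 2 in liver Ter, with 43.0% and 11.7% of all tested genes. The share higher in liver Ter is thus near that of all genes. With median-of-ratios scaling the counts were 9 and 4, against 3491 and 3123 of 12455 tested genes. Among the 10 was Lyn (4.81 ± 0.30), a kinase of myeloid and B cells. The 2 higher in liver Ter were Gab1 (-2.28 ± 0.21, adjusted p = 0.000133) and Pik3r1 (-2.03 ± 0.14, adjusted p = 4.11e-05), an adaptor and the regulatory subunit of PI3 kinase. Jak2, Gab1, Pik3r1 and the STAT5 genes were named after their values were seen.

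Of 11 tested negative regulators, 8 were higher in spleen Ter than in liver Ter and none lower, with a median of 2.39. The matching shares of all tested genes were 43.0% and 11.7%. With median-of-ratios scaling the counts were 6 and 1, against 3491 and 3123 of 12455 tested genes. Ptpn6, a phosphatase that acts on cytokine receptors, stood at 85.7 and 130 FPKM in spleen Ter and 1.48 and 1.32 FPKM in liver Ter (5.48 ± 0.22, adjusted p = 5.85e-06). Socs1 was at 16.3 and 28.8 FPKM against 0.0574 and 0.0935 FPKM (4.40 ± 0.29, adjusted p = 3.10e-05). Spleen Ter also exceeded the libraries labelled MEP and CMP in Socs3 (2.64 ± 0.43 and 3.53 ± 0.43) and Socs1 (2.28 ± 0.29 and 2.73 ± 0.29), 2 genes that cytokine signals switch on.

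The 11 tested target genes of the receptors split between spleen Ter and liver Ter, 7 higher and 4 lower against 43.0% and 11.7% of all tested genes. With any of the other scalings the counts were 5 and 4. All tested genes then gave 3491 and 3123 of 12455 (median-of-ratios), 2910 and 3197 of 12720 (quantile) and 3960 and 2430 of 12713 (totals without globin genes). The 4 higher in liver Ter were Bcl2l1 (-3.31 ± 0.37, adjusted p = 0.000281), a survival gene that Epor signalling switches on, Pim1 (-2.62 ± 0.16), Erfe (-1.79 ± 0.18), the erythroblast hormone that acts on iron, and Ccnd3 (-1.33 ± 0.25); they were named after their values were seen. Bcl2l1 stood at 137 and 132 FPKM in liver Ter, 19.7 and 8.02 FPKM in spleen Ter, 4.82 and 6.22 FPKM in the libraries labelled MEP and 3.05 and 2.49 FPKM in CMP. Among the 7 higher in spleen Ter were Myc (4.44 ± 0.26) and Ccnd2 (4.16 ± 0.30), growth genes, and Bcl2 (3.75 ± 0.41), the survival gene that IL-7 signals keep up in lymphocytes. In MEP against CMP, Myc (-3.74 ± 0.26), Ccnd2 (-2.31 ± 0.30) and Bcl2 (-2.02 ± 0.41) were lower and Id1 (1.60 ± 0.29) was higher.

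Of 16 transcription factors known to act on the receptor genes, 8 were higher in spleen Ter than in liver Ter and 3 lower. These counts are near the 43.0% and 11.7% of all tested genes. With median-of-ratios scaling they were 6 and 4, against 3491 and 3123 of 12455 tested genes. Gata1, Tal1 and Klf1, erythroid factors, were the 3 higher in liver Ter (-4.91 ± 0.49, -5.62 ± 0.17 and -5.88 ± 1.02), where Epor was also higher. Gata1 stood at 106 and 104 FPKM in liver Ter and 4.97 and 1.07 FPKM in spleen Ter. Spi1, which encodes PU.1, was at 126 and 138 FPKM in the libraries labelled MEP and 83.9 and 72.6 FPKM in CMP, the 2 groups highest in Csf2ra and Csf3r. It stood at 59.5 and 69.5 FPKM in spleen Ter and at 1.70 and 1.54 FPKM in liver Ter. Spleen Ter was not called against CMP in Spi1 (-0.27 ± 0.15, adjusted p = 0.153) or Csf3r (-0.48), but was lower in Csf2ra (-1.95). Against CMP, the libraries labelled MEP were higher in Cebpe (3.40 ± 0.76, adjusted p = 0.011), a factor of late granulocyte maturation, and lower in Irf8 (-4.89 ± 0.33), the factor of monocyte and dendritic cell fate, Gata2 (-2.58 ± 0.28) and Cebpa (-2.48 ± 0.21), factors of earlier progenitors. Ebf1, a B cell factor, stood at 64.5 FPKM in CLP, 47.2 FPKM in the control, 24.6 FPKM in HSC and 17.9 FPKM in spleen Ter, the same 4 columns as Il7r, and at 1.37 FPKM or less in the other 3.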

How the data were processed

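The deposited table holds the authors' group means in FPKM, 1 column for each of 7 groups of 2 samples; the unit was read from the values. Per the submitters' processing notes the build is mm10; no source used here names the aligner, counter or annotation. Of 49588 lines, 2 had no gene name and 3 were repeats; 49324 genes matched GENCODE M21. In 4 columns each mean is the average of 2 libraries with whole fragment counts, which were solved for (tolerance 0.55 of the last digit); 13777 of 14049 genes (98.1%) at 1 FPKM or more were recovered in all 8 libraries. The most abundant genes could not be. The recovered genes held between 35.8% and 66.0% of the fragments of a library. The scalings of the tested libraries were computed on recovered genes only. Their totals that leave out globin genes therefore also lack other abundant genes, such as the neutrophil gene S100a9. The lengths of Csf1r, Csf2ra, Csf2rb, Il7r and Il3ra were found from the values. These steps and the test were checked on simulated data. limma 3.58.1 (R 4.3.3; eBayes with trend, 4 residual and 2.6 prior degrees of freedom) was fitted on log2(FPKM + 1), for genes at 1 FPKM or more in 2 libraries, with Benjamini-Hochberg adjustment over all of them. The 4 groups share 1 estimate of the spread, which the spleen Ter libraries widen. The 9 genes, the other gene lists and the tests were chosen with earlier results of these data known. All 9 members are named; from the other lists, at most 4 called genes with the largest fold changes per comparison, and for each member the 3 protein-coding genes with the highest Pearson r. Genes given for label checks, for shared spleen Ter values or for groups of columns were named after their values were seen. Of 190 genes on all lists, the 9 receptor genes included, 2 had no value and are not analysed here. Some list genes are not reported here.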

Additional observations from a re-analysis of the deposited data

How the results depend on the processing

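The counts of receptor genes called or at least 2-fold apart stayed within 1.5 times under the other pseudocount, filters, scalings and eBayes setting tried, and without both MEP libraries (an alternative chosen after seeing the data). Leaving out 1 library gave 8 to 9 called genes for spleen Ter against liver Ter, 6 to 8 against MEP, 5 to 7 against CMP, 6 to 8 for liver Ter against MEP, 8 for liver Ter against CMP, and 3 to 6 for MEP against CMP (3 without MEP library B or CMP library A). Where an arm is left with 1 library, it is assumed to vary like the other groups. Of 837 single gene results under the alternatives, 779 kept their direction and call, 41 lost the call, 11 gained it and 6 changed sign; none of the 6 was a called difference. These 6 were, with quantile normalization, Kit in spleen Ter against liver Ter (-0.57), Flt3 in liver Ter against MEP (0.38) and Il7r in liver Ter against CMP (0.14), with median-of-ratios scaling Csf3r in spleen Ter against CMP (0.13), and without spleen Ter library B, Kit against liver Ter (range over left-out libraries -0.01 to 1.38) and Csf1r against MEP (-0.44 to 2.36). The cause was not tested. The 3 scalings moved the all-gene median from 0.79 to between -0.10 and 0.32 for spleen Ter against liver Ter and the share of calls that were higher in spleen Ter from 78.6% to between 47.7% and 62.0%. For MEP against CMP that share went from 23.0% to between 43.2% and 60.8%, for spleen Ter against CMP from 33.1% to between 32.8% and 58.5%, for spleen Ter against MEP from 54.4% to between 39.4% and 50.4%, for liver Ter against MEP from 20.7% to between 28.1% and 49.2% and for liver Ter against CMP from 11.6% to between 23.5% and 51.9%. No paired analysis was possible because the columns are group means and the recovered libraries carry no replicate number. A count model on the recovered fragments was planned and not run. Depth limits Il7r and Il3ra in liver Ter, which rest on 7 to 16 fragments a library.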
